A study of Mus musculus with 30 samples.

Results

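Astrocytes sorted from mouse brain 1 day after a stroke were compared with astrocytes sorted 1 day after sham surgery, over all genes of an expression array. The comparison holds 9 of the 30 arrays of the study, chosen by their titles: 5 labelled as taken 1 day after middle cerebral artery occlusion (MCAO) and 4 as taken 1 day after the sham operation. MCAO blocks a main artery of the forebrain, here for 1 hour followed by reperfusion, while the sham animals had the surgery without that labelled occlusion. All mice of both groups were young adult males carrying Tg(Aldh1l1-eGFP) OFC789Gsat on a Swiss Webster background. In this transgene the regulatory region of Aldh1l1, a folate enzyme gene of astrocytes, drives green fluorescent protein, and fluorescent cells were sorted from papain-digested control and injured brains. The array therefore reads RNA of whatever cells were fluorescent, with no record of their distance from the infarct, and fewer cells of a kind cannot be told apart from less RNA per cell. The titles speak of biological replicates, but not of how many mice lie behind each array. A p-value therefore covers only the spread among arrays within groups. That spread was pooled over all 30 arrays of the study, not taken from the 9 compared arrays alone. The number of arrays limits the precision.

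Astrocytes take up glutamate and potassium, supply neurons with lactate and lipids, and line blood vessels with their endfeet. After ischaemia they become reactive: they enlarge, change their cytoskeleton and secretions, and later take part in forming the border of the lesion. Growth of a cell in general needs new ribosomes, amino acids and nucleotides, whereas the resting astrocyte is rich in enzymes that burn fatty acids and amino acids, and these processes were described here beside the classes of genes usually used to mark reactivity.

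Of 15726 genes tested, 1991 were called (12.7%) by limma at a Benjamini-Hochberg adjusted p under 0.05. Called higher after MCAO were 1021 genes (6.49%) and called lower were 970 genes (6.17%), and the verbs rose and fell are kept for them. All levels are log2 intensities and all changes are log2 folds of MCAO over sham, with the SE of the fit. This SE rests on the spread pooled over all 30 arrays. Its median over genes was 0.226, against 0.117 with the 9 arrays fitted alone. The calls were nearly equal in number but not in size. Rises had a median log2 fold of 1.13 and falls of -0.94, and over all genes tested the median was -0.05. At least 4-fold were 180 rises and 11 falls, and at least 16-fold were 25 rises and 0 falls. The arrays of the groups did not overlap for 1904 genes that lay higher after MCAO (12.1%) and 2393 genes that lay lower (15.2%). Deviations from the group mean correlated between arrays with the same description number (2 to 5), with r across genes from 0.164 to 0.500. For numbers 3 and 5 another sham array had a higher r with the MCAO array. With that number as a replicate block 1218 genes were called, 700 higher and 518 lower. The blocked adjusted p is therefore given beside genes whose call the block ends. Without MCAO array 1 or sham arrays 1, 2 or 4 the falls numbered 628, 619, 620 and 632.

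**Figure D1:**
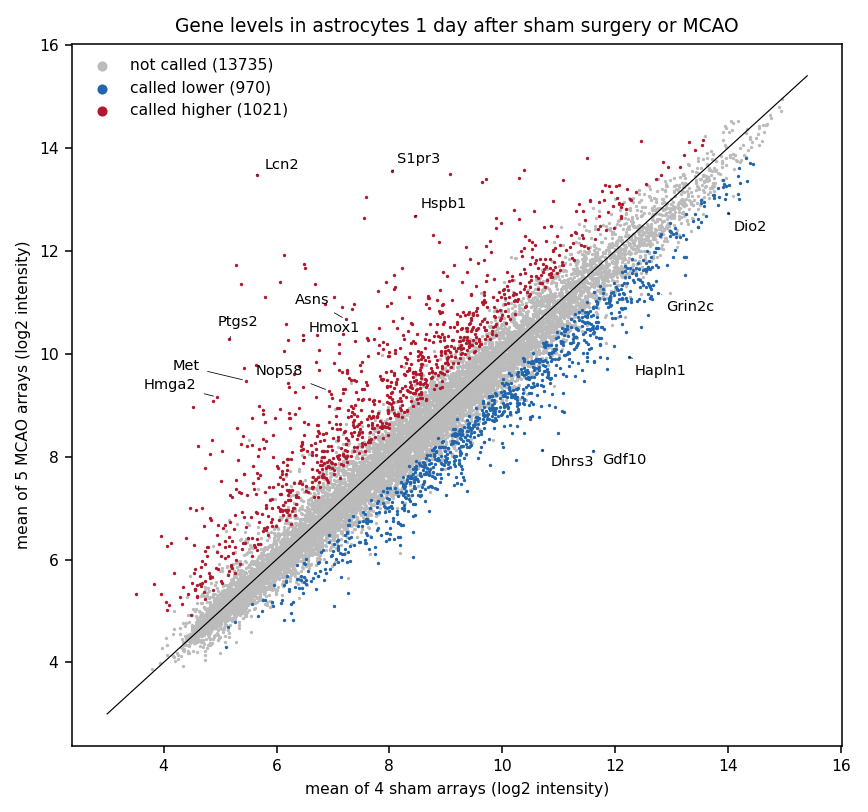
Mean log2 intensity of each of the 15726 genes on the 5 MCAO arrays against the mean on the 4 sham arrays, with the diagonal of no change and the genes called higher (1021) and lower (970) in colour. Rises reach much farther from the diagonal than falls: Lcn2 lies 7.83 above it and Gdf10 3.50 below it.

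Falls came more often from genes with bright probe sets. Probe sets were binned by their mean on the 21 arrays that are not compared here. Of 589 genes at log2 12 or more in those arrays, 18% fell and 5.26% rose, whereas of 3766 genes under log2 6 only 0.611% fell and 3.69% rose. Genes under log2 6 lie close to background and have little room to fall, so their low share of falls is only a description. In the next bin, at log2 6 to 8, 3.31% fell. Among the 100 genes brightest after sham surgery 23 were called, all of them lower, but genes chosen by their sham level lean toward falls, so this count is only a description. The largest of these falls were in Dio2, which activates thyroid hormone, Slco1c1, which imports it, Mfge8, a bridge to dying cells for phagocytes, the neurotensin receptor gene Ntsr2 and the glutathione transferase gene Gstm5 (log2 folds of -1.27, -1.20, -1.08, -0.99 and -0.94). The call of Mfge8 was lost with the block (adjusted p = 0.0514).

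**Figure D2:**
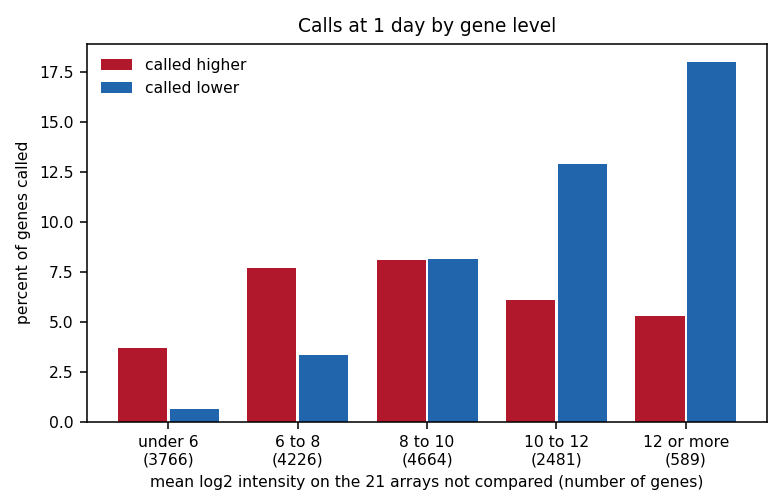
Percent of genes called higher or lower at 1 day in 5 bins of mean log2 intensity on the 21 arrays that are not part of the comparison, with the number of genes under each bin. The share of falls grows from 0.611% in the lowest bin, where genes have little room to fall, to 18% in the highest, while the share of rises stays between 3.69% and 8.06%.

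Markers of astrocytes were bright in both groups. Aldh1l1 itself lay between 12.71 and 12.85 on the sham arrays and between 12.31 and 12.62 on the MCAO arrays, a fold of -0.31 ± 0.31 (adjusted p = 0.682). The groups did not overlap for Aldh1l1, and their SDs were 0.056 (sham) and 0.114 (MCAO), below that pooled SE. The mean of 12 astrocyte markers lay between 13.39 and 13.50 after sham and between 13.15 and 13.32 after MCAO, with Gfap higher and Slc1a3, Gjb6 and Ntsr2 lower. Without overlap of arrays 7 of the 12 lay lower after MCAO and 1 higher, against 15.2% and 12.1% of all genes. With the 9 arrays fitted alone 6 of the 12 were called lower, as were 2890 of all 15726 genes. Of 12 neuronal, 8 T and NK cell, 7 ependymal and 2 erythroid markers tested, 0 were called (limma), and 12 microglial and macrophage markers had means from 4.87 (Aif1) to 9.09 (Csf1r) after sham and from 4.90 (Aif1) to 8.68 (Csf1r) after MCAO. Called were Cd68 among 12 markers of microglia and macrophages (1.98), S100a8, Il1r2 and Lcn2 among 9 of neutrophils and monocytes, Vwf among 11 endothelial markers, and Cnp and Aspa, both lower, among 11 of oligodendrocytes, whose mean ranged from 7.75 to 9.47 over the sham arrays and from 7.84 to 9.26 over the MCAO arrays. Among 8 pericyte and smooth muscle markers and 8 fibroblast markers 1 each was higher, and among 7 of oligodendrocyte precursors 1 was lower. S100a8 was not called without any of the 9 arrays, Vwf not without MCAO arrays 2, 3 or 4 or sham arrays 1, 2 or 4, Cnp not without MCAO arrays 1 or 2 or sham arrays 3 or 4, and Slc1a3 not without MCAO array 4 or sham arrays 1 or 4. With the block S100a8 and Slc1a3 were not called (adjusted p = 0.129 and 0.0564). Median intensity per array lay between 70 and 73 on all 9.

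Sham array 3 and MCAO array 4, which share the description number 4, stood apart in markers of other cells. Mean neuronal marker levels were 8.79 on sham array 3 and 8.54 on MCAO array 4, against 7.34 to 7.58 on the other 7 arrays, and mean endothelial marker levels were 9.12 and 9.34 on these arrays, against 6.89 to 8.13. Sham array 3 also correlated less with its own group than the other sham arrays (median r across genes of 0.981 against 0.993 for each of the others), and r across genes is a description, since genes are not independent. For the 979 genes called higher without it, sham array 3 lay a median of 25.6% of the way from the other sham arrays to the MCAO mean, and for 935 genes called lower without it 33.0% of the way. The part of these other cells in the results was not tested, and fits without sham array 3 or without MCAO array 4 gave 1914 and 1596 calls.

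The largest rise was that of Lcn2, an iron-carrier-binding protein, which lay at 5.09, 4.91, 7.55 and 5.04 on sham arrays 1 to 4 and at 13.61, 13.42, 13.09, 13.76 and 13.53 on MCAO arrays 1 to 5, a rise of 7.83 ± 0.69 (adjusted p = 2.97e-08). The MCAO arrays lay close together far above all sham arrays, of which the third was the highest, and without it the rise was 8.47. Tgm1, a protein-crosslinking transglutaminase, rose by 5.79 and the membrane protein gene Emp1 by 5.08, from 6.94, 7.30, 8.70 and 7.28 to 12.76, 12.79, 12.38, 12.90 and 12.33. For Emp1 too the third sham array was the highest of its group. Lack of overlap between the groups was a condition for naming the largest rises. Cd109, a surface protein that binds TGF-beta, rose by 5.15, the transporter gene Slc10a6 by 4.68 and the tetraspanin-like gene Tm4sf1 by 4.42.

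The 5 smallest adjusted p-values belonged to Hmox1, Gpat3, Calhm5, Adam12 and Lcn2. Hmox1, the haem-degrading enzyme, lay at 6.51, 6.38, 6.67 and 6.32 after sham and at 10.84, 9.85, 10.88, 9.65 and 10.12 after MCAO, a rise of 3.80 ± 0.28 (adjusted p = 2.21e-09). Next came Gpat3, an enzyme of glycerolipid synthesis (3.05 ± 0.25, adjusted p = 1.85e-08), the channel-family gene Calhm5 (2.39 ± 0.20, adjusted p = 1.85e-08), the metalloproteinase gene Adam12 (3.08 ± 0.26, adjusted p = 1.9e-08) and Lcn2. In each of these genes every MCAO array lay above every sham array. Gpat3, Calhm5 and Adam12 had sham means of 4.73, 4.57 and 5.03, close to the log2 5 at which a gene enters the test, where folds are imprecise.

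The largest fall was that of Gdf10, which encodes a TGF-beta superfamily ligand and lay at 11.84, 11.65, 11.12 and 11.84 after sham and at 7.55, 7.63, 9.24, 7.58 and 8.56 after MCAO, a fall of log2 -3.50 ± 0.40 (adjusted p = 1.39e-06). MCAO arrays 3 and 5 stayed higher than the other MCAO arrays, and the same arrays were highest for Prelp, Hapln1 and Nat8f1. These genes were named among falls without overlap of the groups, so their lack of overlap is only a description. Dhrs3, which reduces retinal, fell from a mean of 10.71 ± 0.28 (SD, n = 4) to 8.12 ± 0.37 (SD, n = 5), a change of -2.58 ± 0.28 (adjusted p = 4.32e-07). The link protein gene Hapln1 changed by -2.31, the matrix proteoglycan gene Prelp by -2.30, the AMPA receptor partner Shisa9 by -2.23, the calcium channel subunit Cacna2d2 by -2.03 and the Wnt receptor gene Fzd9 by -1.94. Abhd1, Pdzph1, Btbd17, Nat8f1, Ranbp3l and Clmn fell by 1.95 to 2.54 as well.

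**Figure D3:**
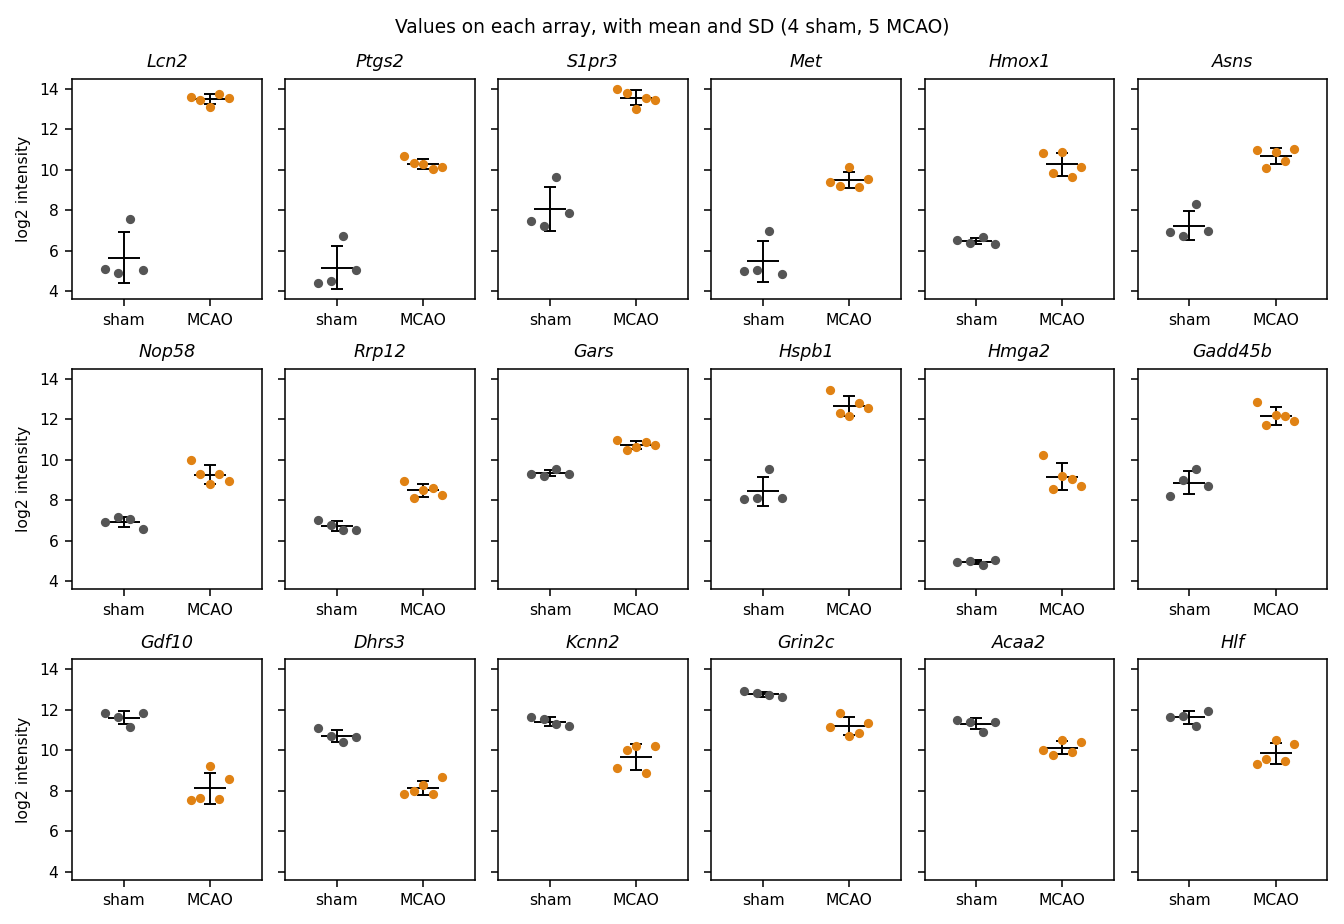
Log2 intensity of 18 genes on each of the 4 sham and 5 MCAO arrays (points), with the mean and SD of each group (bar). Groups do not overlap in any of the 18 genes, but lack of overlap was a condition for naming some of them. Sham array 3, the third sham point, lies above the other sham points for Lcn2, Ptgs2, S1pr3, Met, Asns and Hspb1 but not for Nop58, Rrp12 or Hmga2.

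Promoter sequences are shown so that letter matches to sites of factors known from stress responses can be read in place. For each kind of site the gene was taken that had the largest rise without overlap of arrays among genes whose window holds a match. The gene so taken for the heat shock element, Hsph1, rose by 1.24, against a median of 1.13 over all rises. Windows ran from 250 bases before to 50 after the start of the transcript listed earliest for a gene in RefSeq (GRCm38.p6), and 12562 tested genes had one. The capitals mark matches to AP-1 sites (TGANTCA), STAT sites (TTCNNNGAA) or heat shock elements (GAA, TTC and GAA with 2 bases between each) on either strand of the reference genome, which is of another strain than the mice.
Emp1, chr6:135362681-135362980, plus strand, AP-1: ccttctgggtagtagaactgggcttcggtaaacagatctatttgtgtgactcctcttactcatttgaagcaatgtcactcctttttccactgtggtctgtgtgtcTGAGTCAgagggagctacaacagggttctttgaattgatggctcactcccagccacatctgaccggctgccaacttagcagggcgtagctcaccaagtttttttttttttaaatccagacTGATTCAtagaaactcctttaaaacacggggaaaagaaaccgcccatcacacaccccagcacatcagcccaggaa
Ifi202b, chr1:173982795-173983094, minus strand, STAT: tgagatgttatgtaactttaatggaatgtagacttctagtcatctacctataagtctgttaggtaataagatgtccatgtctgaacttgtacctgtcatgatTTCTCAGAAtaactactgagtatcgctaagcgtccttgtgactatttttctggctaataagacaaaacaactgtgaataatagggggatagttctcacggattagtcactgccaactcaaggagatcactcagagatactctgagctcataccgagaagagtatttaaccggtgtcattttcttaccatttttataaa
Hsph1, chr5:149636287-149636586, minus strand, heat shock element: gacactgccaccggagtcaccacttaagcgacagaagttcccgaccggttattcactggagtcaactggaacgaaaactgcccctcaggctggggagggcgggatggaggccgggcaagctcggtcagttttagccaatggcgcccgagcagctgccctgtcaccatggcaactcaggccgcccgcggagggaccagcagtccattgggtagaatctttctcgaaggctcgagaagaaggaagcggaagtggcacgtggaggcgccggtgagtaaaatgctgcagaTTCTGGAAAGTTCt
In Emp1 the AP-1 matches began 145 and 25 bases before the start, in Ifi202b the STAT match began 148 bases before it, and in Hsph1 the match began 36 bases after it. Capitals mark only the kind of match named before each sequence. The window of Emp1 also holds STAT and antioxidant response letters, and that of Hsph1 antioxidant response letters, which are not marked.

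AP-1 letters were more frequent among rises, most of all among large ones. They were present in 5.56% of the 12562 windows, in 8.16% of 809 windows of genes that rose, in 3.65% of 795 windows of genes that fell and in 15.6% of 135 windows of genes that rose at least 4-fold. STAT letters stood in 6.81%, 7.79%, 6.29% and 9.63% of the same sets. Antioxidant response letters (TGACNNNGC) stood in 14.2%, 15.5%, 14.5% and 14.8%, and heat shock elements in 0.382%, 0.494%, 0.252% and 0 of 135. Mean GC content of the sets was 59.9%, 61.4%, 60.7% and 59.0%. A match describes letters, not binding, and AP-1 and antioxidant letters can overlap. Ifi202b, an interferon-inducible DNA sensor family member whose probe set is shared between transcripts of similar sequence, rose by 6.43 (4.70, 4.64, 7.04 and 4.75 after sham, 13.71, 11.86, 10.29, 11.56 and 11.18 after MCAO), and signal from its near copies cannot be separated.

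The factors themselves moved unevenly. Of 31 AP-1, immediate early and injury transcription factors 12 rose and 0 fell, with a median fold of 0.70 and 8 rises under the block. Hmga2, an architectural chromatin factor of embryonic and growing cells, lay at 4.95, 5.00, 4.81 and 5.04 after sham and at 10.26, 8.57, 9.22, 9.05 and 8.69 after MCAO, a rise of 4.21 ± 0.42 (adjusted p = 1.93e-07). Sham values of Hmga2 were at the filter on all 4 arrays, sham array 3 included. Fosl1, a late AP-1 subunit, rose by 3.28, the inflammatory factors Cebpd and Cebpb by 2.71 and 1.63, Ets2 by 1.86 and Atf3 by 1.92. Atf3 was not called with the block (adjusted p = 0.0604) or without sham array 1 or sham array 2, nor Cebpb without sham array 4. Fos, Jun and Egr1, induced within minutes of many stimuli, had folds of 0.02, 0.26 and 0.34 with overlapping groups (adjusted p = 0.988, 0.871 and 0.787), and Fos lay between 14.19 and 14.43 on the sham arrays. Klf5 and Klf6 were the called members among 13 Kruppel-like factors (3.91 and 1.67). Without sham array 1 the rises among the 31 AP-1, immediate early and injury factors numbered 6, as they did without sham array 2.

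Most genes that build ribosomes rose. In ribosome biogenesis 29 of 39 members rose (74.4%, against 6.49% of all genes), 0 fell, and all 39 folds were above 0 with a median of 1.06. With the block 21 rose, and with the 9 arrays fitted alone 36. Nop58, a core protein of the complexes that methylate ribosomal RNA, lay at 6.93, 7.16, 7.06 and 6.58 after sham and at 10.01, 9.30, 8.79, 9.30 and 8.98 after MCAO, a rise of 2.34 ± 0.42 (adjusted p = 0.000346). Nhp2, of the pseudouridylation complexes, rose by 1.80 ± 0.23 and Rrp12, needed for export of both ribosomal subunits, by 1.77 ± 0.20. In these genes MCAO array 1 was the highest array and sham array 3 lay among the other sham arrays. The helicase Ddx21 rose by 1.39, nucleostemin, encoded by Gnl3, by 1.29, fibrillarin, Fbl, by 1.14 (adjusted p = 0.0525 with the block), and Polr1a and Polr1e, subunits of RNA polymerase I, by 1.07 and 1.14.

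**Figure D4:**
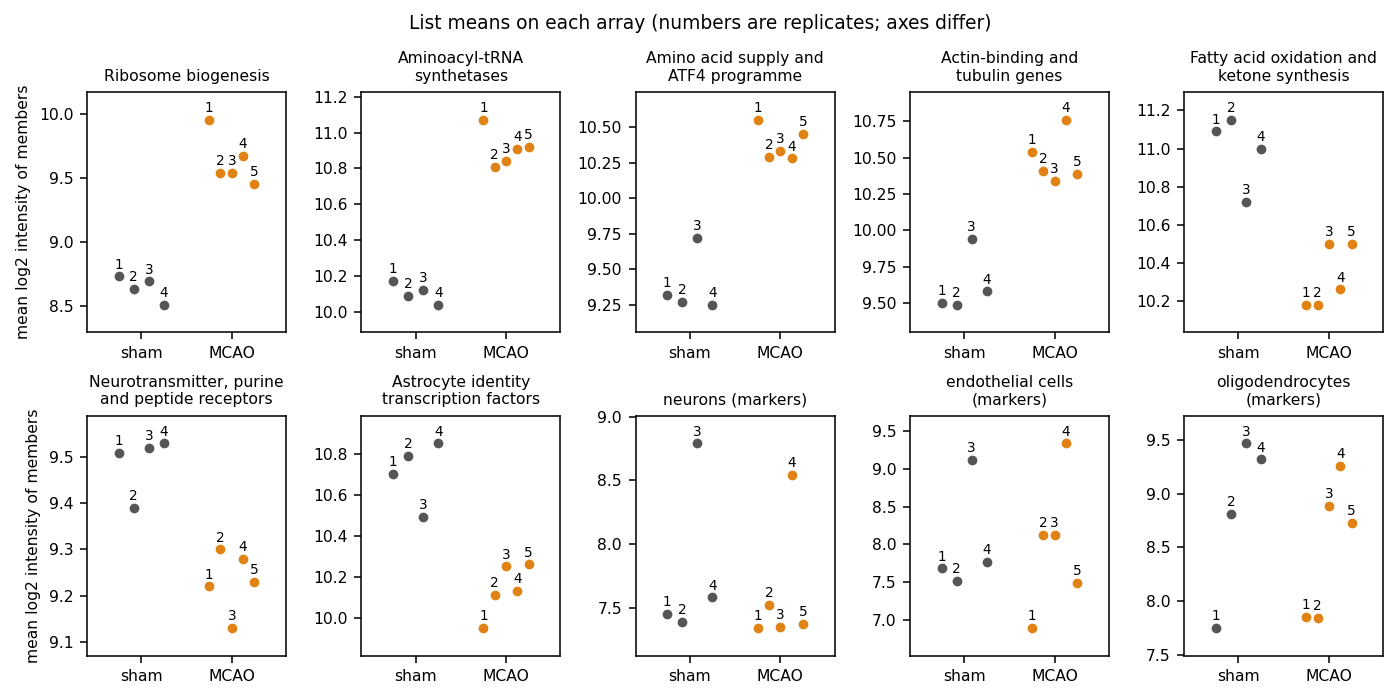
Mean log2 intensity of the tested members of 7 gene lists and 3 marker lists on each array, with the replicate number beside each point. Ribosome biogenesis lies between 8.51 and 8.73 on the sham arrays, sham array 3 included, and between 9.45 and 9.95 on the MCAO arrays, whereas the neuron and endothelial markers are highest on sham array 3 and MCAO array 4.

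Of 19 cytosolic ribosomal protein genes 8 rose, all 19 folds were above 0 and the median was 0.83. Rps6, the substrate of growth-factor kinases, rose from 8.60, 8.82, 8.55 and 8.72 to 10.08, 9.31, 10.30, 10.25 and 9.72, by 1.26 ± 0.24 (adjusted p = 0.000726). With the block 5 ribosomal protein genes rose, and 5 rose without MCAO array 1, MCAO array 4, sham array 1 or sham array 4. Of 26 translation factors 12 rose and 0 fell, with a median of 0.56. Eif1a, which scans for start codons, rose by 2.19, Eif2s2, a subunit of the initiator tRNA carrier, by 1.35, Eif4ebp1, a brake on cap-dependent initiation, by 1.31 and the helicase Eif4a1 by 1.12. With the block 8 of the 26 rose.

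Of 19 aminoacyl-tRNA synthetases 13 rose (68.4%), 0 fell and all 19 folds were above 0, with a median of 0.84, and 8 rose with the block. Gars, for glycine, rose from 9.28, 9.22, 9.56 and 9.30 to 11, 10.49, 10.65, 10.87 and 10.73, by 1.41 ± 0.20 (adjusted p = 2.52e-05). Rars and Lars, for arginine and leucine, rose by 1.13 each. The groups were wide apart relative to their spread in Gars, and sham array 3 was the highest of the sham arrays there. Of 26 genes of amino acid supply and the ATF4 programme, the transcriptional answer to lack of amino acids and to stress kinases, 13 rose and 1 fell, with a median of 1.01. Asns, asparagine synthetase, rose by 3.44 ± 0.46 (adjusted p = 9.79e-06), from 6.91, 6.74, 8.30 and 6.95 to 10.97, 10.06, 10.87, 10.42 and 11. Chac1, which degrades glutathione, rose by 3.37, Nupr1 by 2.67, the cationic amino acid transporter Slc7a1 by 2.07, Aldh18a1, of proline synthesis, by 1.86 and the mitochondrial folate enzyme Mthfd2 by 1.58. Atf4 itself rose by 1.09 (adjusted p = 0.0643 with the block), a call also lost without sham array 2. Phgdh, which opens serine synthesis and is a known ATF4 target in other cells, went the other way, from a mean of 13.06 to 12.01, a change of -1.04 ± 0.23 (adjusted p = 0.0023), and Psat1, the next enzyme of that path, had a fold of -0.45 (adjusted p = 0.419).

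Of 32 heat shock proteins and chaperonins 15 rose and 1 fell, with a median of 0.74. Chaperonin ring subunits, which fold actin and tubulin, rose by 0.71 to 0.99 in Cct3, Cct4, Tcp1, Cct5 and Cct8. Cct8 lay within 10.80 to 10.88 on the sham arrays and within 11.49 to 12.01 on the MCAO arrays. The small heat shock protein gene Hspb1 rose by 4.22 ± 0.52, and Hspa2 fell by 1.30. All 32 folds of the constitutive proteasome were above 0, from 0.18 to 0.85, 7 rose, and 4 rose with the block. Of 32 genes of the endoplasmic reticulum and secretory pathway 1 rose (Sec24d, of the transport vesicle coat, 1.89) and 1 fell (Copz2, -0.66), with a median of 0.05, whose sign turned without MCAO array 4 or sham array 2. Hspa5, the chaperone of the endoplasmic reticulum, had a fold of 0.24 (adjusted p = 0.574).

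Ctps, which makes CTP, rose from 9.53, 9.67, 10.27 and 9.69 to 12.57, 12.05, 12.11, 12.37 and 11.86, by 2.40 ± 0.31 (adjusted p = 6.79e-06). Odc1, the rate-limiting enzyme of polyamine synthesis, rose by 2.21 and the uridine kinase gene Uck2 by 2.04. Of 25 genes of nucleotide, polyamine and NAD synthesis these were among 8 that rose, and they were the 3 that rose with the block, while 5 rose without MCAO array 4 or sham array 4. Of 26 nuclear transport genes 7 rose and 0 fell, with a median of 0.48, among them Ranbp1 (1.05), Ipo4 (1.04) and Ipo5 (0.92). Of 25 splicing genes 1 rose (Sf3b3, 0.94), a share of 4.0% near the 6.49% of all genes, with a median of 0.20. Myc, a driver of ribosome and nucleotide genes, rose by 1.35 ± 0.26 (adjusted p = 0.000742), and the G1 kinase gene Cdk6 by 2.52 and Ccnd1, cyclin D1, by 2.21 (adjusted p = 0.0536 with the block). Of 22 genes of G1 cyclins and inhibitors 4 rose, 0 fell and the median was -0.06. Without sham array 2 the rises numbered 2 and Ccnd1 was not called.

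**Figure D5:**
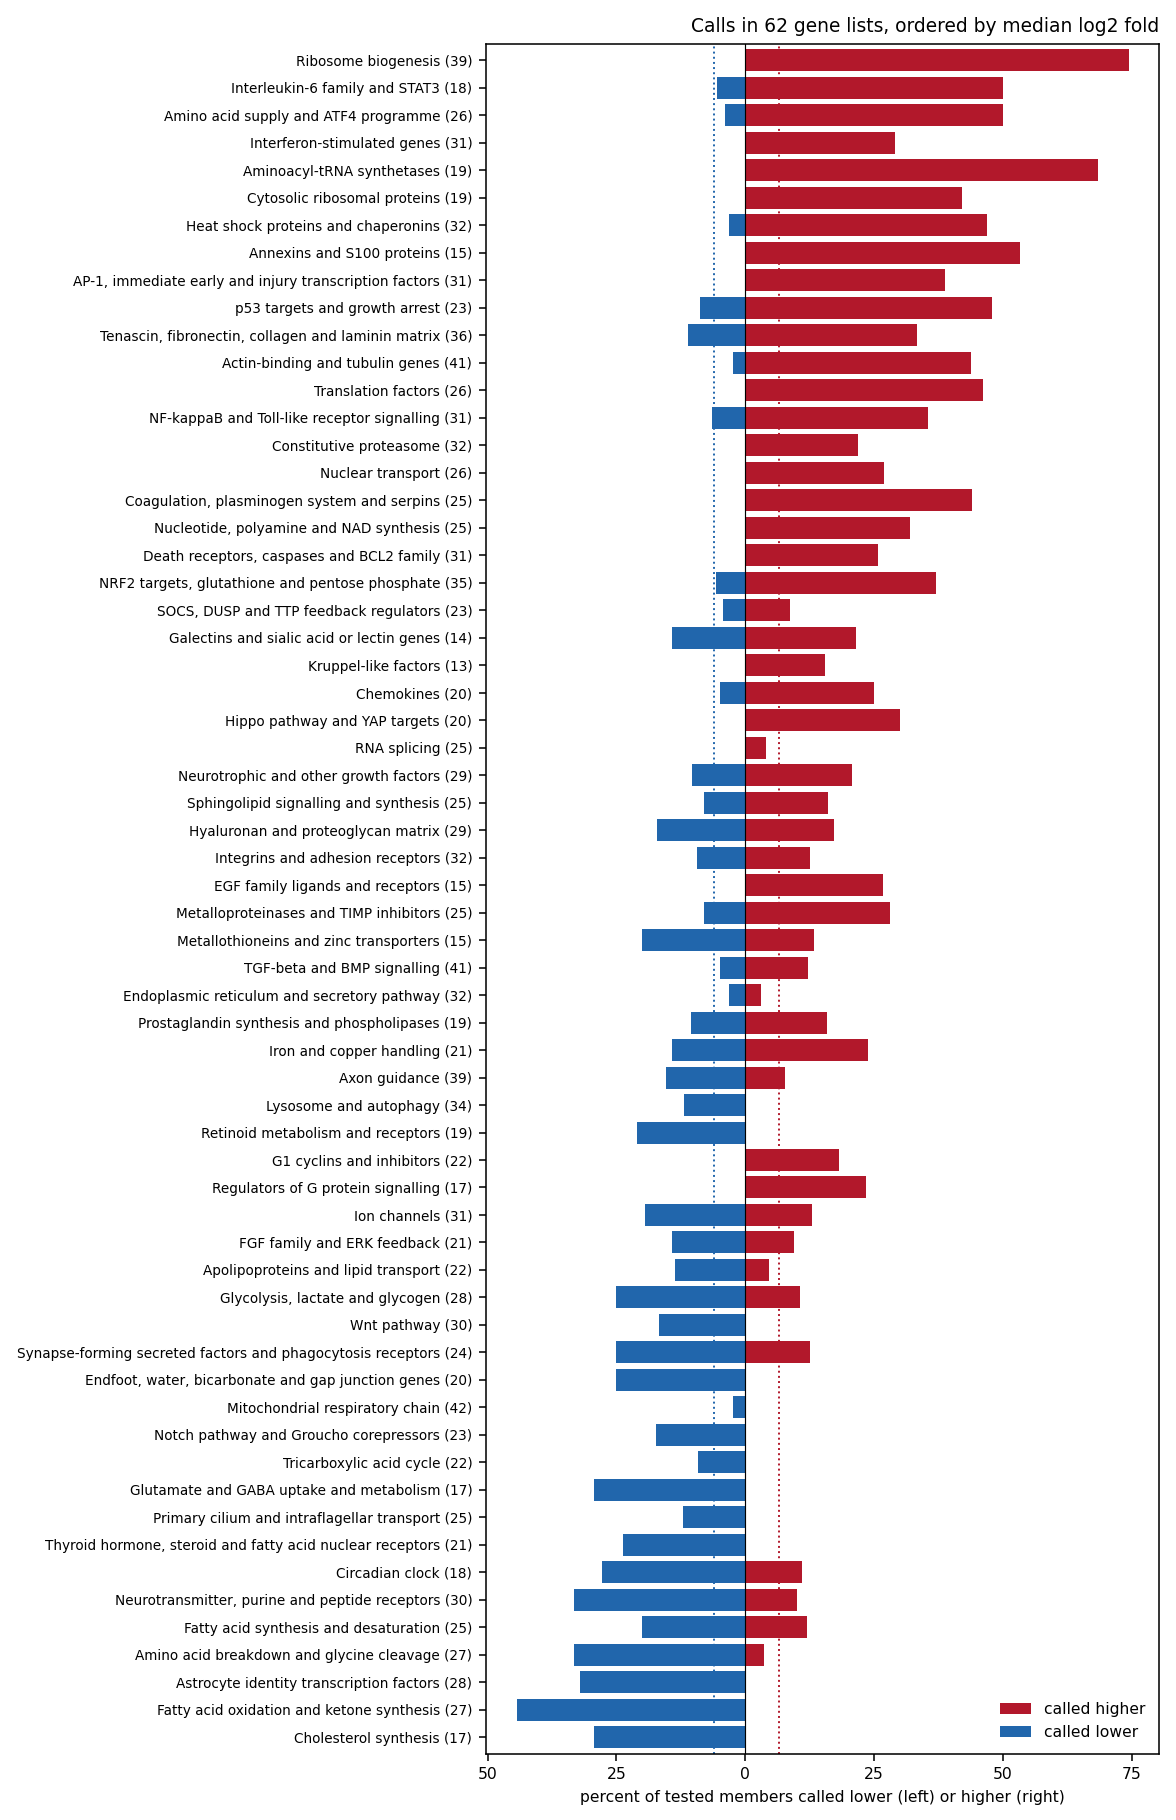
Percent of tested members called higher (right, from 0) or lower (left, from 0) in 62 gene lists, ordered by median log2 fold, with the number tested in brackets. Dotted lines mark the shares over all genes, 6.49% and 6.17%. Ribosome biogenesis leads at 74.4% higher and fatty acid oxidation and ketone synthesis has 44.4% lower, the highest lower share of the lists.

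Of 23 p53 targets and growth arrest genes 11 rose and 2 fell, with a median of 0.67. Gadd45b and Gadd45a, stress sensors of damaged or arrested cells, rose by 3.30 and 2.77. The kinase inhibitor gene Cdkn1a rose by 2.56 ± 0.47 (adjusted p = 0.000403), from 8.85, 10.09, 11.83 and 9.12 to 13.28, 12.03, 12.27, 12.56 and 12.52. Sham array 3 came close to the lowest MCAO array for Cdkn1a, and without it the rise was 3.18. Ccng2, an atypical cyclin, and Sesn1 fell by 1.09 and 0.97, and Sesn1 was not called with the block (adjusted p = 0.0937), without MCAO array 1 or without sham array 2. The rises in this list numbered 7 without sham array 1 and 7 without sham array 2. Of 31 death receptor, caspase and BCL2 family genes 8 rose and 0 fell, with a median of 0.37. Tnfrsf12a, the TWEAK receptor, rose by 3.45 ± 0.36, the initiator caspase gene Casp8 by 1.92 and Fas by 1.59, and the survival gene Mcl1 by 1.55. With the block 5 of the 31 rose, the same number as without MCAO array 3, sham array 1, sham array 2 or sham array 4.

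Antioxidant genes rose in part. Of 35 NRF2 targets and genes of glutathione and the pentose phosphate path 13 rose and 2 fell, with a median of 0.36. Beside Hmox1 the largest were Srxn1, which repairs peroxiredoxins, at 3.45 ± 0.31, and the thioredoxin reductase gene Txnrd1 at 2.74 ± 0.45. Gpx1, a glutathione peroxidase, rose from 8.53, 8.82, 9.61 and 8.81 to 10.80, 10.46, 11.35, 11.30 and 10.97, by 2.03. Gstk1 and Gstm5, glutathione transferases, fell by 1.15 and 0.94. Nqo1 and Gclc, used widely as NRF2 targets, had folds of -0.34 and 0.36 (adjusted p = 0.556 and 0.296).

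Of 31 genes of NF-kappaB and Toll-like receptor signalling 11 rose and 2 fell, with a median of 0.52. Cd14, a co-receptor for lipopolysaccharide and damage signals, rose from 6.55, 6.73, 7.41 and 7.37 to 11.44, 11.30, 11.10, 11.26 and 10.41, by 4.09 ± 0.51 (adjusted p = 4.57e-06). Tlr4, its signalling partner, rose by 2.32 ± 0.32, with sham arrays within 6.07 to 6.41 and MCAO arrays within 8.42 to 8.70. The interleukin-1 receptor gene Il1r1 rose by 1.88 and Myd88, the adaptor that both receptors use, by 1.75. Tlr3, a sensor of double-stranded RNA, fell by 0.84, and the kinase gene Irak2 fell by 1.12 (adjusted p = 0.0663 with the block), a call also lost without MCAO array 4, sham array 1 or sham array 3. Cd14, Tlr4 and Myd88 are also expressed by microglia and macrophages, whose mean marker level lay between 6.10 and 6.59 on the sham arrays and between 6.18 and 6.77 on the MCAO arrays with Cd68 higher by 1.98, and their part in these results was not tested.

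Sphingosine phosphate and prostaglandin genes held some of the widest gaps of the comparison. S1pr3, a receptor for sphingosine 1-phosphate, rose from 7.47, 7.22, 9.64 and 7.84 to 13.99, 13.77, 13.02, 13.55 and 13.44, by 5.51 ± 0.78 (adjusted p = 2.19e-05). Sphk1, the kinase that makes its ligand, rose by 5.32 ± 0.64 and Sgpl1, the lyase that destroys it, by 1.21 ± 0.28. S1pr1, another receptor for the same lipid, had a fold of -1.01 ± 0.44 (adjusted p = 0.149), without overlap of the groups. Ptgs2, the inducible cyclooxygenase, rose from 4.39, 4.52, 6.70 and 5.04 to 10.66, 10.32, 10.27, 10.03 and 10.14, by 5.12 ± 0.75. Pla2g4a, which frees its substrate, rose by 2.02 and Hpgd, which inactivates prostaglandins, by 4.13 ± 0.48, so genes of synthesis and of breakdown rose in both paths. Pla2g7, which degrades platelet-activating factor, fell by 1.36. Most other members were not called: 4 of 25 sphingolipid genes rose and 2 fell (1 without MCAO arrays 1, 3, 4 or 5 or sham arrays 1 or 4), and 3 of 19 prostaglandin and phospholipase genes rose and 2 fell.

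Growth factor genes split. Met, the receptor for hepatocyte growth factor, rose from 5.00, 5.04, 6.95 and 4.86 to 9.40, 9.21, 10.12, 9.14 and 9.52, by 4.01 ± 0.51 (adjusted p = 4.63e-06). Bdnf, a neurotrophin, rose by 2.43 ± 0.35, with MCAO array 1 at 11.15 and the other MCAO arrays between 8.75 and 9.85. Lif, an interleukin-6 family cytokine, showed the same array in the lead, at 11.62 against 7.94 to 9.03, and without it the rise of Lif was 1.84 in place of 2.45. Vegfa, the main angiogenic factor, fell from 11.60, 11.51, 12.18 and 11.74 to 11.03, 11.22, 10.55, 9.65 and 10.13, by 1.24 ± 0.35 (adjusted p = 0.0162), a call lost without MCAO array 4 or without sham array 3. Vegfb fell by 0.99 as well, and in all 6 of 29 members rose and 3 fell. Without MCAO array 4 the falls numbered 1. Among 15 EGF family genes 4 rose and 0 fell, with Ereg (2.19), Hbegf (1.61) and Tgfa (0.95) the largest.

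Clotting control genes rose in part, and matrix genes moved both ways. Of 25 genes of coagulation, the plasminogen system and serpins 11 rose and 0 fell, with the block as without it. Thbd, thrombomodulin, which turns thrombin to an anticoagulant role, rose from 6.25, 5.67, 6.77 and 6.57 to 10.45, 10.20, 8.93, 9.70 and 8.76, by 3.29 ± 0.35 (adjusted p = 3.92e-07). Procr, the endothelial protein C receptor, rose by 2.44, the broad protease inhibitor gene A2m by 2.42 and Tfpi2, an inhibitor of the tissue factor path, by 2.31. Mean endothelial marker levels lay between 7.51 and 9.12 on the sham arrays and between 6.89 and 9.34 on the MCAO arrays, Vwf among them rose by 1.57, and their part in these results was not tested. Among metalloproteinases Adam12 rose by 3.08, Adamts5 by 2.56 ± 0.25 and Adamts4, another proteoglycan-cleaving enzyme, by 2.12, and the inhibitor gene Timp1 rose by 5.26. Of 29 hyaluronan and proteoglycan genes 5 rose and 5 fell: the hyaluronan receptor gene Cd44 (3.69), Vcan (2.35) and the synthase gene Has2 (1.27) rose, and the link protein genes Hapln1 (-2.31) and Hapln3 (-1.34) fell. In the tenascin, fibronectin, collagen and laminin list 12 of 36 rose and 4 fell. Col6a2 rose from a mean of 7.40 ± 0.31 (SD, n = 4) to 10.24 ± 0.29 (SD, n = 5), while Fbln1 fell by 1.52 and the laminin gene Lama2 by 1.13.

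The Hippo pathway reads cell shape through its effectors YAP and TAZ. Ccn2, their usual target gene, rose from 7.45, 8.31, 9.66 and 7.47 to 12.22, 12.16, 10.68, 11.57 and 11.67, by 3.44 ± 0.63 (adjusted p = 0.000452). Its partner target Ccn1 had a fold of 0.78 (adjusted p = 0.163), and Yap1 one of -0.15. Of 20 genes of the Hippo pathway and YAP targets 6 rose and 2 did so with the block, and 3 rose without MCAO array 1, sham array 1, sham array 2 or sham array 4. Piezo1, a channel opened by membrane stretch, rose by 1.95 ± 0.27, from 8.71, 8.88, 9.29 and 8.63 to 11.29, 10.66, 10.56, 10.80 and 10.82. Filamin C, Flnc, rose by 3.59 ± 0.32, the actin-bundling Actn1 by 2.10 and the small GTPase gene Rhoj by 2.17. Of 15 annexin and S100 genes 8 rose and 0 fell, led by S100a10 (5.33) and its binding partner Anxa2 (3.53).

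Fatty acid oxidation was the list with the highest share of falls. Of 27 genes 12 fell (44.4%, against 6.17% of all genes), 0 rose, 1 fold was above 0 and the median was -0.65. The mean of this list was 10.72 to 11.15 on the sham arrays, and of all genes at log2 10 to 12, 12.9% fell. Acaa2, the last step of mitochondrial oxidation, fell from 11.51, 11.40, 10.90 and 11.38 to 10, 9.77, 10.50, 9.93 and 10.41, by 1.18 ± 0.18 (adjusted p = 3.97e-05). Ppara, the nuclear receptor that switches on the pathway, fell by 1.21, Eci1, for unsaturated chains, by 1.15 and the acyl-CoA synthetase gene Acsl6 by 0.93. The groups did not overlap in Acaa2, with sham array 3 the lowest sham array and MCAO arrays 3 and 5 the highest of their group. Cpt1a, which admits fatty acids to mitochondria, had a fold of -0.49 with overlapping groups (adjusted p = 0.161). The count depended on the fit: 4 genes fell with the block, 21 with the 9 arrays fitted alone and 14 without sham array 3. Without sham array 2 it was 4, without sham array 4 or MCAO array 4 it was 5, and without sham array 1, MCAO array 1 or MCAO array 2 it was 6.

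Of 27 genes of amino acid breakdown 9 fell and 1 rose, 1 fold was above 0 and the median was -0.56. Prodh, which starts proline oxidation, fell from 12.66, 12.74, 12.56 and 12.50 to 10.55, 11.22, 11.32, 10.88 and 11.47, by 1.53 ± 0.26 (adjusted p = 0.00023). Fah, of tyrosine breakdown, fell by 1.18 and Bckdha, of branched-chain amino acids, by 0.82. Bcat1, the cytosolic branched-chain transaminase, rose by 2.81 ± 0.42, from 6.30, 6.79, 8.02 and 6.93 to 9.73, 9.45, 9.69, 10.18 and 10.06. With the block 4 of the 27 fell, and without MCAO array 1, sham array 1, sham array 2 or sham array 4 also 4, and 5 without MCAO array 4. Proline had its synthesis gene Aldh18a1 higher and its oxidation gene Prodh lower.

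All 42 folds of the respiratory chain were below 0, from -0.75 to -0.07, with a median of -0.31, and 1 gene fell (2.38%, against 6.17% of all genes), Ndufs3 (-0.57, adjusted p = 0.0992 with the block). The mean of the chain on the sham arrays was 11.95 to 12.11. All genes at log2 10 to 12 and at log2 12 or more had median folds of -0.13 and -0.28. The call of Ndufs3 was also lost without MCAO array 1, MCAO array 2, sham array 1, sham array 2 or sham array 4, but with the 9 arrays fitted alone 23 genes of the chain fell. In the tricarboxylic acid cycle 1 of 22 folds was above 0 with a median of -0.39, and 2 fell, Idh1 (-0.74) and Pdhb (-0.54). Pdhb was not called with the block (adjusted p = 0.148) nor without any of the 9 arrays. Ppp1r3g, which directs glycogen synthesis, fell from 11.48, 11.60, 11.47 and 11.25 to 9.65, 9.69, 9.66, 9.06 and 9.32, by 1.98 ± 0.46 (adjusted p = 0.00416). The glycogen phosphorylase gene Pygb fell by 1.00 and Ugp2, which makes the glycogen precursor, by 0.77. Of the 28 genes of glycolysis, lactate and glycogen 7 fell and 3 rose, with a median of -0.21, and with the block 6 fell and 1 rose. Falls in that list numbered 4 without sham array 1 or sham array 2, and rises numbered 1 without sham array 1.

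Of 30 receptors for transmitters, purines and peptides 10 fell and 3 rose, with a median of -0.48. Grin2c, an NMDA receptor subunit, fell from 12.90, 12.80, 12.73 and 12.61 to 11.14, 11.84, 10.72, 10.86 and 11.33, by 1.58 ± 0.33 (adjusted p = 0.00155). The GABA receptor subunits Gabra4, Gabra2 and Gabrb1 fell by 1.33, 1.19 and 1.01 and the AMPA receptor subunit Gria2 by 1.19. These subunits are also expressed by neurons, whose mean marker level lay between 7.39 and 8.79 on the sham arrays and between 7.34 and 8.54 on the MCAO arrays, and their part in these results was not tested. Bdkrb2, a bradykinin receptor, rose by 3.24 ± 0.48, from 4.81, 4.70, 5.09 and 4.70 to 10.56, 7.38, 7.54, 7.97 and 6.85, with MCAO array 1 far above the rest and a rise of 2.61 without it, and P2ry6, a receptor for UDP, rose by 2.26. Of 31 ion channels 6 fell and 4 rose. Kcnn2, a calcium-activated potassium channel, fell from 11.62, 11.54, 11.30 and 11.18 to 9.11, 9.99, 10.20, 8.87 and 10.22, by 1.73 ± 0.32 (adjusted p = 0.000513), and Kcnk2, a background potassium channel, by 1.47. Kcnj10, the main potassium channel of astrocytes, had a fold of -0.27 (adjusted p = 0.335). Without MCAO array 2 the falls among the ion channels numbered 3.

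Of 28 astrocyte identity factors, which pattern the forebrain or mark astrocytes, 9 fell, 0 rose and the median was -0.63. Emx2, a factor of the cortex, fell from 10.36, 10.57, 10 and 10.27 to 8.29, 8.56, 9.05, 8.89 and 8.94, by 1.56 ± 0.38 (adjusted p = 0.00594). Lhx2 fell by 1.28 ± 0.22 and Gli3, a transducer of hedgehog signals, by 1.02, and these 3 were the falls left with the block. Sox2 and Nfia, general factors of astrocytes, had folds of -0.43 and -0.46 (adjusted p = 0.684 and 0.0886), and Sox9 one of 0.17. Without sham array 1 or sham array 4 the falls numbered 4 and without sham array 2 they numbered 5.

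Of 30 Wnt genes 5 fell and 0 rose, the frizzled receptor genes Fzd9, Fzd2 and Fzd4 by 1.94, 1.72 and 0.98 and Sfrp1, a secreted inhibitor, by 1.00. Fzd9 lay at 10.80, 10.41, 9.83 and 10.52 after sham and at 8.02, 8.69, 8.87, 8.18 and 8.50 after MCAO. Of 23 Notch genes 4 fell and 0 rose, among them the target gene Hes5 (-1.14, adjusted p = 0.0545 with the block) and the corepressor gene Tle2 (-1.52), and with the block 2 fell. Hes5 was not called without sham array 1 or sham array 4, nor Tle2 without sham array 1. Without sham array 1 the falls numbered 1 and without sham array 4 they numbered 2. The receptor gene Notch1 had a fold of -0.32 (adjusted p = 0.369).

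Some hormone, retinoid and clock genes were called lower. Beside Dio2 and Slco1c1, Ppara and the mineralocorticoid receptor gene Nr3c2 (-1.06) fell among 21 genes of thyroid hormone, steroid and fatty acid receptors, of which 5 fell and 0 rose. Dio2 lay within 13.86 to 14.25 after sham and within 12.58 to 12.95 after MCAO. Beside Dhrs3 the retinol dehydrogenase genes Rdh5 (-1.38) and Rdh14 (-0.78) fell among 19 retinoid genes, of which 4 fell and 0 rose, and 2 fell without sham array 1, which ended the call of Rdh5. Of 18 clock genes 5 fell and 2 rose. Hlf fell from 11.65, 11.71, 11.19 and 11.92 to 9.32, 9.57, 10.51, 9.48 and 10.30, by 1.78 ± 0.25 (adjusted p = 1.51e-05), and Dbp, a related output factor, by 1.32. Nfil3, which opposes these factors at shared sites, rose by 2.08 ± 0.34 and Clock by 1.07. The core genes Per1 and Arntl had folds of -0.06 and -0.02, and without sham array 4 the falls numbered 3 and Dbp was not called. Hours of collection are not part of the labels used here, so time of day cannot be told apart from treatment for these genes.

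Mertk, a receptor with which astrocytes engulf synapses, fell from 13.16, 12.98, 12.99 and 12.55 to 11.81, 12.22, 11.56, 11.40 and 11.65, by 1.19 ± 0.19 (adjusted p = 0.000106). Its ligand gene Gas6 fell by 1.24 and Megf10, another engulfment receptor, by 0.89, while the other Mertk ligand gene, Pros1, rose by 1.74. Of 24 genes of secreted synapse-forming factors and phagocytosis receptors 6 fell and 3 rose, and 3 fell with the block. Ift27, of the intraflagellar transport train, fell by 1.42 ± 0.28, from 10.55, 11.18, 10.85 and 10.81 to 9.38, 9.28, 9.38, 9.36 and 9.73, in a list of 25 cilium genes with 3 falls, 0 rises and a median of -0.40. Of 34 lysosome and autophagy genes 4 fell and 0 rose. This share of falls, 11.8%, compares with 6.17% of all genes and 12.9% of genes at log2 10 to 12. The mean of this list was 10.82 to 10.92 on the sham arrays. Gusb (-1.08) and Tpp1 (-1.07), lysosomal hydrolases, were the 2 that kept their call with the block.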

How the data were processed

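RNA of sorted astrocytes was hybridised to Affymetrix mouse arrays. The authors deposited linear intensities summarised by RMA, per the submitters' processing notes; the RMA version is not given in the sources used here. The values were whole numbers from 9 to 35553, and log2 was taken of them. Of 45037 probe sets 34945 had 1 gene symbol, 932 several and 9160 none in the platform annotation, and 34741 matched RefSeq (GRCm38.p6). Each of 18193 genes was read from 1 probe set, and genes were kept at log2 5 or more on at least 3 of the 30 arrays, which set aside 2467.

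limma 3.58.1 in R 4.3.3 fitted all 30 arrays in 8 groups (22 residual and 4.55 prior degrees of freedom), with 2-sided tests adjusted by Benjamini-Hochberg over all 15726 genes. The members and gene lists were chosen with earlier results of these data known. Named genes were drawn from the 15 largest rises and falls without overlap of arrays and the 10 largest with both means at log2 7 or more. They were also drawn from the 5 smallest adjusted p, up to 5 each way among the 100 brightest, and up to 3 called members of each list each way. Not every gene that met these rules is named, so the genes given are not the full set of largest rises and falls. Other members were given as values.

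Same-numbered sham and MCAO arrays were checked for deviations in common. For the number in the description r was 0.234, 0.191, 0.500 and 0.164 in the 4 pairs numbered 2 to 5, so these numbers were taken as pairs. In the pairs numbered 3 and 5, however, another sham array had a higher r with the MCAO array. For the number in the title r was 0.150, -0.105, -0.236 and -0.114. The labels do not say what the description number marks. The method was tested on simulated data. Alternatives covered normalisation, filters, probe set choice, variance models, thresholds, both replicate blocks and leaving out each array.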

Additional observations from a re-analysis of the deposited data

Results flagged for a closer look

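For 574 gene or list levels within a group of 4 or 5 arrays, the gap between the most extreme array and the nearest other was compared with the range of the group by Dixon's criterion. It was passed 44 times, and chance passes about 1 in 20 groups. Sham array 3 accounted for 27 of these, MCAO array 1 for 4, MCAO array 2, sham array 1 and sham array 2 for 3 each and the other arrays for 1 each.

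Log2 levels on sham array 3 lay above the other sham arrays in Anxa2 (10.49), Asns (8.30), Casp8 (6.23), Ets2 (9.55), Flnc (7.86), Gpat3 (5.17), Hspb1 (9.53), Hsph1 (12.29), Ifi202b (7.04) and Lcn2 (7.55). They did so too in Mcl1 (12.16), Met (6.95), Mthfd2 (9.30), P2ry6 (6.32), Rgs17 (8.79), Slc10a6 (8.17), Slc7a1 (12), Tfpi2 (6.15) and Vwf (8.46). All of these genes were called higher after MCAO. The same array lay below the others in Cpt1a (10.19), Gusb (8.62) and Phgdh (12.68). Mean levels of lists stood high there in amino acid supply and the ATF4 programme (9.72), glycolysis (11.36), death receptors (7.83), regulators of G protein signalling (8.56) and the tenascin and collagen matrix (8.31).

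On MCAO array 1, Gnl3 (11.32), Nfil3 (8.02) and Polr1e (8.07) were high and Elovl6 (9.21) was low. On MCAO array 2, Hes5 (11.65) and Tle2 (7.24), both of the Notch list, were high and the proteasome mean (11.07) was low. Single values on other MCAO arrays were Cacna2d2 at 8.14 on array 3, the Kruppel-like factor mean at 10.37 on array 4 and Ift27 at 9.73 on array 5, each the highest of its group. On sham array 1, Ereg lay at 4.25, Sgpl1 at 9.42 and the nuclear transport mean at 10.09. On sham array 2, Aif1 lay at 4.91, Nfia at 12.92 and the mean of the transmitter receptors at 9.39, and on sham array 4 Megf10 lay at 13.24.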

How the results depend on the processing

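Counts of calls moved more than their direction. With the description number as a replicate block 1218 genes were called, 700 higher and 518 lower, of which 684 and 516 were also called without it. That block fitted on the 8 paired arrays alone, an alternative chosen after seeing the data, gave 5136 calls (2315 higher, 2821 lower). With the title number as a replicate block 1562 were called. The 9 arrays fitted alone gave 5180 calls (2290 higher, 2890 lower) and array weights 6161 (2668 higher, 3493 lower). An adjusted p under 0.01 left 1096 (616 higher, 480 lower), and a test against a log2 fold of 1 left 117 (113 higher, 4 lower). Without array 5 of the lipopolysaccharide group, also chosen after seeing the data, 2906 were called, 1541 of them lower. Leaving out each replicate in turn gave 1367 to 1914 calls, 740 to 979 higher and 619 to 935 lower. Quantile normalisation, median centring, other filters, the mean of probe sets, trended robust variance and leaving out shared probe sets gave 1923 to 2253 calls. Of 203 called genes named in the text, 186 were called without each array in turn, 191 with the description block and 200 after quantile normalisation, and 0 changed direction under these alternatives. Counts of 0 in some lists became 1 or 2 without single arrays: 1 Wnt gene and 1 nuclear receptor gene rose without sham array 3, 1 coagulation gene fell without MCAO array 4, 1 G1 gene fell without MCAO array 3, 1 Kruppel-like gene fell without sham array 4, and 2 lysosome genes rose without MCAO array 2.

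The array limits what can be read. Levels near log2 5 lie close to background, where folds are uncertain. Of 1105 called genes with more than 1 tested probe set, another probe set was called the same way in 514 and the other way in 2.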

Other observations

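Enzymes that lengthen and desaturate fatty acids moved both ways. Of 25 genes of fatty acid synthesis and desaturation 5 fell and 3 rose, with a median log2 fold of -0.53, beside 6.17% lower and 6.49% higher of all genes. The falls were 20.0% of this list, whose mean was 11.07 to 11.21 on the sham arrays, against 12.9% of genes at log2 10 to 12. Acss2, which makes acetyl-CoA from acetate, fell by 1.41, the desaturase gene Fads2 by 1.31 and the elongase genes Elovl2 and Elovl6 by 1.05 and 0.92, while Elovl7 and Fads3 rose by 1.34 and 1.13. Of 14 galectin, lectin and sialic acid genes 3 rose and 2 fell, and 1 fell without sham array 1. Lgals3 and Lgals1, secreted galectins, rose by 3.76 and 2.65, and St8sia1, the synthase of the ganglioside GD3, fell by 1.58.

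Some regulators of G protein signalling and some endfoot genes were called as well. Of 17 regulators of G protein signalling 4 rose and 0 fell, with Rgs16, Rgs17 and Rgs2 higher by 1.41, 1.40 and 1.37 and a median of -0.07 whose sign turned without sham array 3. Of 20 endfoot, water, bicarbonate and gap junction genes 5 fell and 0 rose, with the chloride channel gene Clcn2 (-1.18) the largest and 3 falls with the block. The falls were 25% of this list, against 6.17% of all genes. The list was bright, with a mean of 11.9 to 12.05 on the sham arrays. Among all genes, 12.9% fell at log2 10 to 12 and 18% at log2 12 or more.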
